A study of Mus musculus with 6 samples.

Results

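The 5 genes described here, Prm1, Prm2, Prm3, Tnp1 and Tnp2, encode the protamines and the transition proteins of mouse sperm. They were chosen by symbol from the 30905 genes of a single-cell RNA-seq study of mouse testis, and all of them were measured in every library. The study holds 6 libraries of testis from male ICR mice, an outbred stock, and compares animals exposed to cigarette smoke with unexposed ones. The 3 smoking libraries came from mice kept in a chamber with cigarette smoke for 30 minutes a day over 12 weeks, with 15 cigarettes per session of 1.1 mg nicotine and 11 mg tar each and 3.47 mg/m3 of smoke particles. The 3 control libraries came from mice placed in such a chamber without smoke. Mice of both groups were bought at 6 weeks of age and adapted for 1 week, although the age label reads 8 weeks. Each group had 7 mice per the labels, no library is tied to a mouse, and the spread behind every p-value is that between libraries, which may be technical.

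When a round spermatid becomes a sperm cell, its histones are removed, the DNA is first held by transition proteins and then packed by protamines. Prm1 and Prm2 are the arginine-rich, DNA-packing protamines, and Prm2 is made as a precursor that is trimmed in the nucleus. Prm3 lies beside them in the genome and encodes an acidic protein that is not a DNA-packing protamine. Tnp1 and Tnp2 encode the basic proteins that occupy the DNA in between. In mouse testis these genes are transcribed in round spermatids, and their mRNAs are stored for days and translated in elongating spermatids, so mRNA and protein are high at different times. RNA only was measured here.

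On GRCm38 with the GENCODE M21 annotation, 4 of the 5 genes lie on the minus strand of chromosome 16 within 17904 bp. Prm1 (ENSMUSG00000022501) spans chr16:10796326-10805839, Prm2 (ENSMUSG00000038015) chr16:10791380-10796134, Prm3 (ENSMUSG00000050058, 1 exon) chr16:10790505-10790914 and Tnp2 (ENSMUSG00000043050, 2 exons) chr16:10787936-10788660. Socs1, a cytokine signalling inhibitor, is the next gene, at chr16:10782240-10785536. Tnp1 (ENSMUSG00000026182, 2 exons) lies apart on chromosome 1, at chr1:73015074-73015909. Tnp1 overlaps the antisense gene 1700027A15Rik, and Prm1 overlaps the antisense gene Gm46563 and the pseudogene Gm10343, so some of their UMIs cannot be told apart if strand was not used in counting.

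The bases from 120 to 41 before the RefSeq start of each gene (GRCm38.p6, minus strand) are shown because all 5 genes are transcribed in spermatids and their promoters could be compared. Capitals mark the letters TGANNTCA, which resemble the site of the spermatid regulator CREM. The end of the Prm1 stretch lies in the first exon of a longer GENCODE transcript.
Prm1, chr16:10796864-10796943: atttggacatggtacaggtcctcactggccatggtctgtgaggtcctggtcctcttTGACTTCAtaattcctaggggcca
Prm2, chr16:10792146-10792225: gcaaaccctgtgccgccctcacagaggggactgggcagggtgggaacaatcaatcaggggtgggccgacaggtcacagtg
Prm3, chr16:10790955-10791034: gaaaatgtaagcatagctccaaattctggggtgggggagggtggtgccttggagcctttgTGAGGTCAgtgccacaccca
Tnp1, chr1:73015940-73016019: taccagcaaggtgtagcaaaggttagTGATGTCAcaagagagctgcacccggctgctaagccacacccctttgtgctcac
Tnp2, chr16:10788696-10788775: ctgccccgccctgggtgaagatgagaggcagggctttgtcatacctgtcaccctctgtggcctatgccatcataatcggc
In the 120 bases before the start, searched on both strands, TGANNTCA was present in Prm1, Prm3 and Tnp1, with its first base at -64, -60 and -94. It was present in 7.14% of 32851 mouse promoters of that length. TATAA, searched likewise, began at -32 in Prm1, at -30 in Prm2 (read on the reverse strand) and at -33 in Tnp2, and was present in 11.8% of the promoters. TGACG was present in none of the 5 and in 11.7% of all. The motifs were chosen after the sequences had been seen, and a match is a description of letters, not of binding.

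The files gave raw UMI counts (unique molecular identifiers, 1 per captured RNA molecule) for 54253 barcodes, of which 47959 were retained. Retained barcodes held between 3.40e+07 and 4.83e+07 UMIs per control library and between 4.72e+07 and 6.86e+07 per smoking library. Any pair of libraries shared 16 to 34 barcode sequences. Barcodes were grouped into 33 clusters without use of the 5 genes, and clusters with at least 3 detected markers of a type were called by that type, as in elongating spermatid-like. The elongating clusters 6, 18 and 25 held 9, 9 and 4 such markers. Unnamed barcodes outside the high-UMI cluster described below made up 53.0% to 63.9% of retained barcodes, with 17.4% to 43.0% of UMIs.

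Among the classes, all 5 transcripts had their highest medians per barcode in elongating spermatid-like barcodes (3679 barcodes in clusters 6, 18 and 25) and in 1 unnamed cluster. That cluster, cluster 15, held 969 barcodes with a median of 22609 UMIs. Cluster 15 is called the high-UMI cluster here. Its leading genes included Tnp2, Tex37, H2al3 and Hmgb4, but too few of the fixed markers to name it. In elongating spermatid-like barcodes the median of Prm1 was 514, 380 and 1844 UMIs per barcode in the controls (libraries 1 to 3 in order, here and below) against 2403, 2077 and 2021.5 in the smoking libraries. In the high-UMI cluster it was 1655, 1478 and 2169.5 in controls and 2494, 2645 and 2415 in smoking libraries. Controls 1 and 2 were low in the elongating class, and the smoking libraries lay above all controls in both. The median of all UMIs per barcode separated the groups likewise. The highest control and lowest smoking library had 15449 and 16487.5 in the elongating class, and 21763 and 23486 in the high-UMI cluster. These counts are not corrected for depth, and the share of all genes that separate on this scale was not computed.

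The other 4 genes followed Prm1 in the high-UMI cluster at different levels. Prm2 had library medians of 1069.5 to 1761 UMIs per barcode there, Tnp2 of 1011 to 1669, Tnp1 of 611.5 to 1090 and Prm3 of 64 to 95. The highest counts in a single barcode were 22146 UMIs of Prm1 and 15456 of Prm2, both in 1 barcode of the high-UMI cluster. Tnp2 reached 12451 UMIs, Tnp1 8178 and Prm3 924 in elongating spermatid-like barcodes. These are levels of 3′ tags and are compared between genes only as numbers of captured molecules, not per length.

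**Figure D1:**
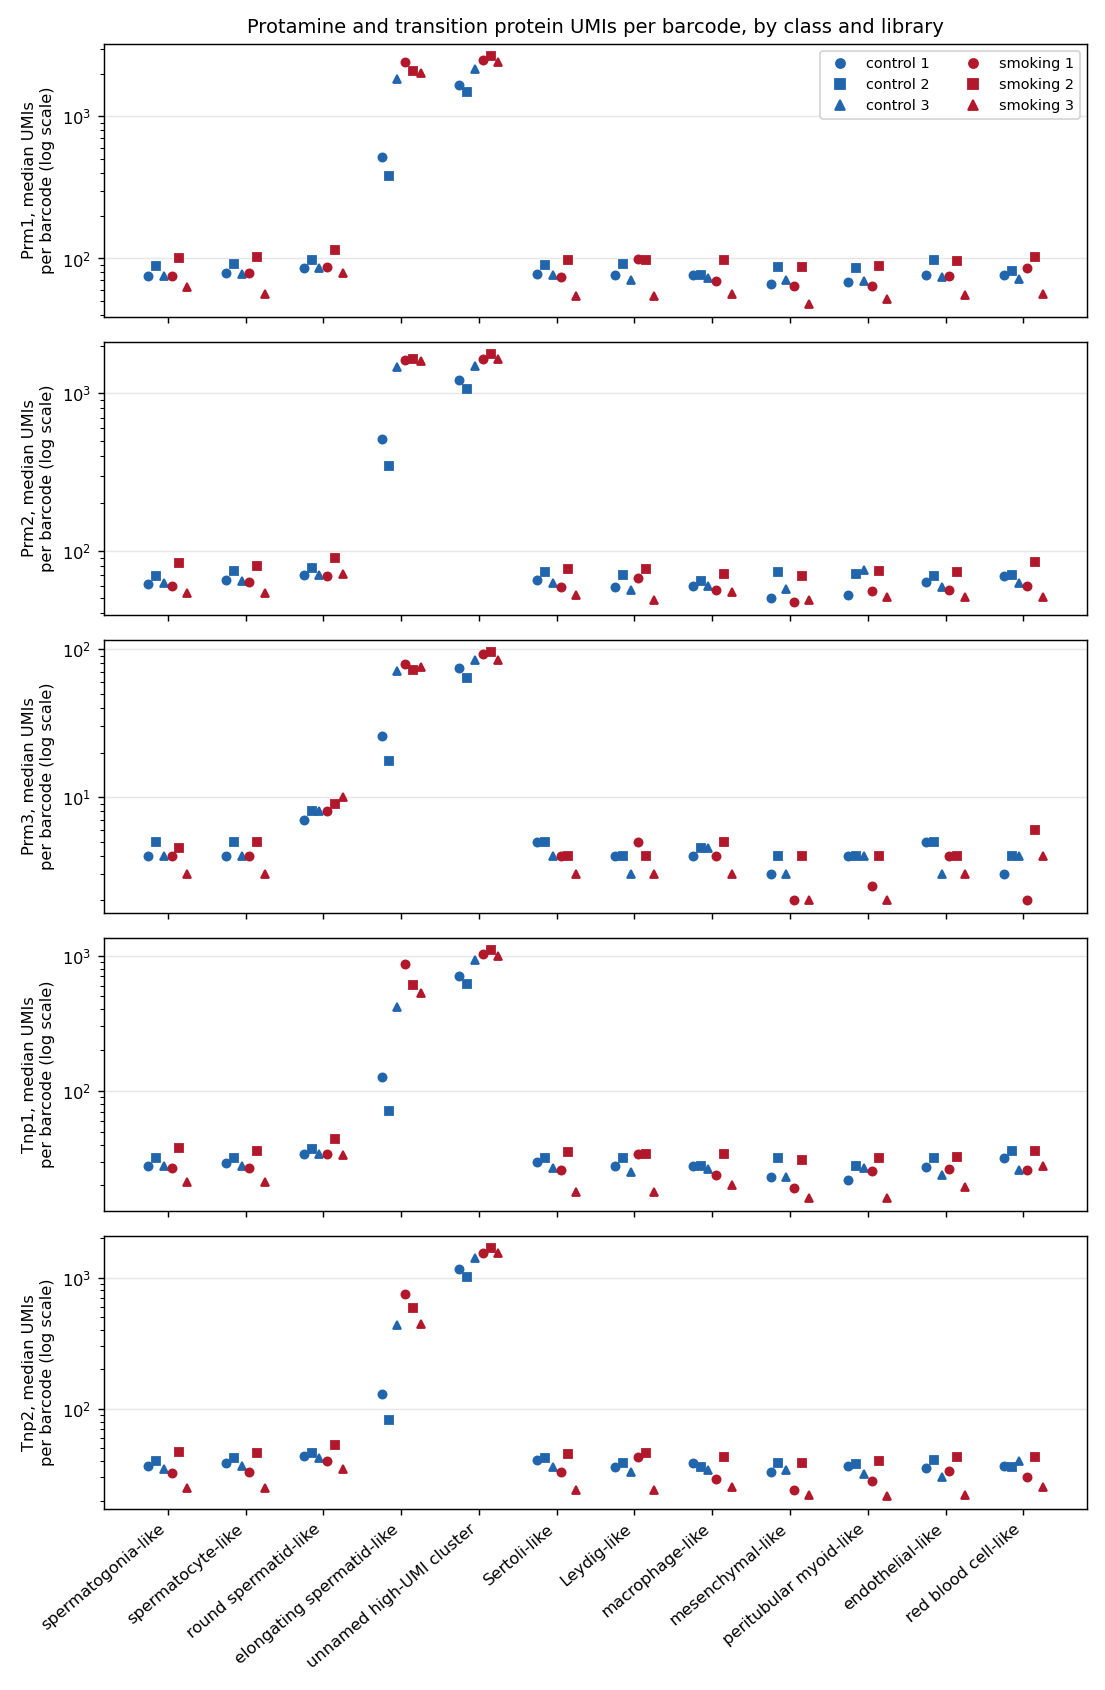
Median UMIs per barcode (log scale) of each gene in 12 classes, 1 point per library, with controls in blue and smoking libraries in red. The elongating spermatid-like class and the high-UMI cluster stand above all other classes for each gene, and the other classes lie near the level of somatic barcodes, with Prm3 in round spermatid-like barcodes (7 to 10) above it.

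Classes outside the spermatids held the 5 transcripts at nearly the same low level. Somatic cells of the testis do not make protamines, so the UMIs in somatic barcodes were taken as the level of free RNA and of RNA carried over from spermatids. In the pool of 6 somatic classes without the Sertoli-like class (125 to 270 barcodes per library, median of 2798 to 4652 UMIs per barcode), the median of Prm1 was 75, 87 and 71 UMIs per barcode in controls and 78, 95 and 54 in smoking libraries. Smoking library 3 was lowest and smoking library 2 highest, and the groups overlapped. The pool's medians were 50.5 to 73 for Prm2, 19 to 33 for Tnp1, 24 to 43 for Tnp2 and 3 to 4 for Prm3.

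In spermatocyte-like barcodes, which hold meiotic cells, the median of Prm1 was 1.05 ± 0.0316 times that of the pool (SD over 6 libraries), and in spermatogonia-like barcodes, the mitotic germ cells, 1.04 ± 0.0695 times. Over 7 classes (spermatogonia-like, spermatocyte-like, Sertoli-like, Leydig-like, macrophage-like, mesenchymal-like and unnamed), library medians ran from 47.5 to 102 UMIs per barcode for Prm1, from 47 to 84 for Prm2, from 2 to 5 for Prm3, from 16 to 37.5 for Tnp1 and from 22 to 47 for Tnp2. These levels are at the free-RNA level and are read as background. Every barcode of the spermatogonia-like class held a UMI of Prm1.

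For Prm3, the least abundant of the 5, the share of barcodes with a UMI was compared after each barcode was thinned to 1500 UMIs. It was 84.8% to 92.6% in Sertoli-like barcodes, 90.3% to 94.9% in round spermatid-like and 95.5% to 99.0% in elongating spermatid-like barcodes. The round spermatid-like range thus overlapped that of a somatic class, and a Prm3 UMI alone did not mark a spermatid in these files. In spermatocyte-like barcodes the share was 63.0% to 83.3% and in spermatogonia-like barcodes 55.9% to 69.4%, in both below the Sertoli-like range. Library medians of all UMIs per barcode were 2876.5 to 3135.5 and 5158 to 7085.5 in these 2 classes, against 2032 to 2604 in Sertoli-like barcodes. Thinning keeps a smaller part of a larger barcode, so the order of these shares also moves with barcode size.

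The 5 genes stood at different heights above the somatic pool in the spermatid clusters, which is a description without a test. Among round spermatid-like clusters, cluster 19 held 962 barcodes with a median of 33484 UMIs and 12 of the fixed round spermatid markers. There the median of Prm3 was 59, 63.5 and 55 UMIs per barcode in controls and 72.5, 69 and 55.5 in smoking libraries, which was 16.4 ± 1.90 times the level of the pool. Tnp1 stood at 3.44 ± 0.411 times its pool level, and Prm1, Prm2 and Tnp2 at 1.97 ± 0.195, 1.87 ± 0.160 and 1.97 ± 0.209 times (SD over 6 libraries). In all 6 libraries the order had Prm3 first and Tnp1 second. The median of Prm1 in this cluster was 134, 158.5 and 137 UMIs per barcode in controls and 146, 206 and 122 in smoking libraries, with overlap.

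In cluster 25 of the elongating class (303 barcodes) every gene was far above the pool. The medians were 26.7 ± 9.15 times the pool for Prm1, 22.3 ± 6.43 for Prm2, 23.6 ± 4.35 for Prm3, 31.3 ± 9.58 for Tnp1 and 36.9 ± 12.8 for Tnp2. In cluster 6 (2364 barcodes), the largest of the class, they were 31.4 ± 11.6, 26.4 ± 8.22, 20.8 ± 6.15, 33.3 ± 13.5 and 22.6 ± 8.37 in the same order of genes. The spreads of the 2 clusters overlapped for each gene, but both came from the same 6 libraries, so this does not compare them within a library. In cluster 18 (1012 barcodes) Prm1 was at 1.04 ± 0.0789 times the pool and Tnp1 and Tnp2 at 1.02 ± 0.107 and 1.04 ± 0.0940, while Prm2 was at 1.35 ± 0.0979 and above 1 in all 6 libraries. Cluster 18 had a median of 2634 UMIs per barcode and 9 of the fixed markers of elongating spermatids.

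Ratios between the genes, with free RNA included, are given beside these levels. The ratio of Prm3 to Prm1 UMIs was 0.414 ± 0.0767 in cluster 19, 0.0444 ± 0.00185 in cluster 25, 0.0391 ± 0.00340 in the high-UMI cluster and 0.0348 ± 0.00222 in cluster 6 (SD over 6 libraries). Cluster 19 lay above the other 3 in every library. The ratio of Tnp1 to Prm1 was 0.617 ± 0.0395 in cluster 19 and 0.398 ± 0.00849, 0.408 ± 0.00596 and 0.367 ± 0.0143 in clusters 25, 15 and 6. The ratio of Tnp2 to Tnp1 was 0.812 ± 0.123 in cluster 19, 1.53 ± 0.0583 in cluster 25, 1.59 ± 0.0833 in the high-UMI cluster and 1.03 ± 0.0853 in cluster 6. The spreads of clusters 25 and 15 over libraries overlapped in this ratio, which was not compared within a library. The classes at the free-RNA level had their own ratios, with 0.0521 ± 0.00256 for Prm3 to Prm1, 0.347 ± 0.00774 for Tnp1 to Prm1 and 1.26 ± 0.0638 for Tnp2 to Tnp1 in spermatocyte-like barcodes.

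**Figure D2:**
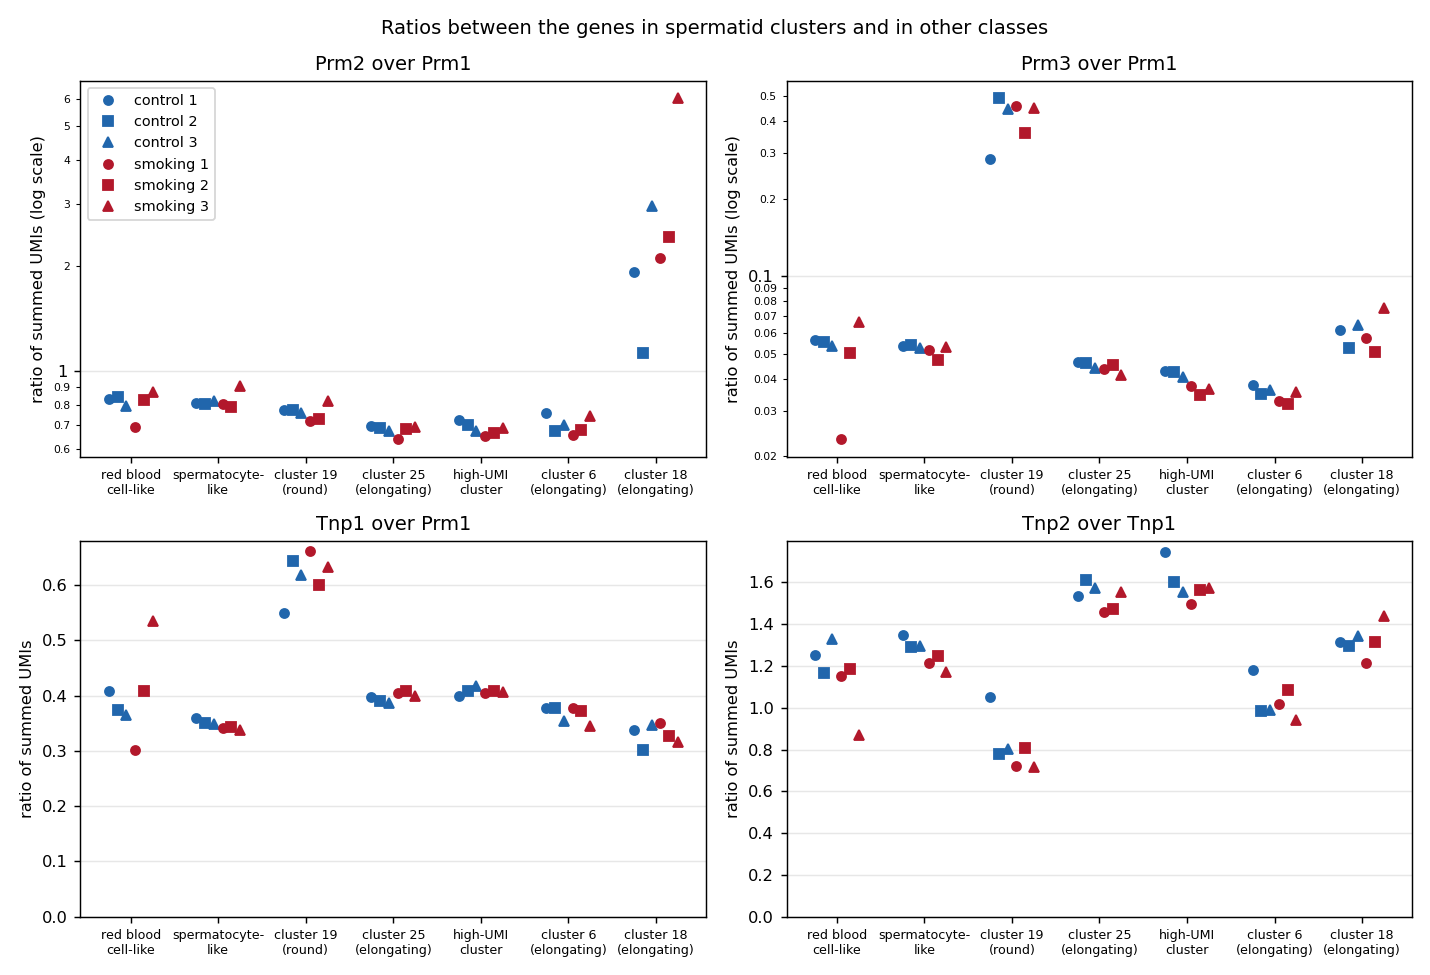
Ratios of summed UMIs between the genes (log scale in the upper panels, linear in the lower) in 2 classes at the free-RNA level and in 5 spermatid clusters, 1 point per library. Prm3 over Prm1 and Tnp1 over Prm1 are highest in cluster 19, Tnp2 over Tnp1 is highest in cluster 25 and the high-UMI cluster, and of the units shown Prm2 over Prm1 exceeds 1 in cluster 18 alone.

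Prm2 exceeded Prm1 in a separate set of elongating spermatid-like barcodes. The ratio of Prm2 to Prm1 in cluster 18 was 1.91, 1.13 and 2.95 in controls and 2.10, 2.41 and 6.02 in smoking libraries, against 0.703 ± 0.0413 in cluster 6 and 0.677 ± 0.0209 in cluster 25. In the whole data, 428 of 47959 barcodes (0.892%) held over 2 times as many UMIs of Prm2 as of Prm1, and 375 of them were among the 3679 elongating spermatid-like barcodes (10.2%). Cluster 18 held 214 of them (21.1% of its barcodes) and cluster 6 held 161 (6.81%), while the high-UMI cluster and cluster 25 held none. These 375 barcodes had a median of 122 UMIs of Prm1, 1005 of Prm2, 26 of Tnp1 and 37 of Tnp2. In the other elongating spermatid-like barcodes the medians were 2089.5, 1508, 645.5 and 581.5. Tnp1 and Tnp2 were thus within the range of the somatic pool's medians, in barcodes that held Prm2 far above that range. Prm1 differed by cluster. Its median was 75, within the pool's range, in the 214 barcodes of cluster 18, and 376, above that range, in the 161 of cluster 6. The medians of Prm2 were 618 and 1624 in the same order.

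By library these barcodes made up 6.91%, 6.37% and 11.0% of elongating spermatid-like barcodes in controls and 6.28%, 7.00% and 15.3% in smoking libraries, with overlap. The set was chosen after the values had been seen, so no test was made. Outside the elongating class, 31 of 4553 Sertoli-like barcodes (0.681%) and 3 of 6882 round spermatid-like barcodes were of this kind.

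**Figure D3:**
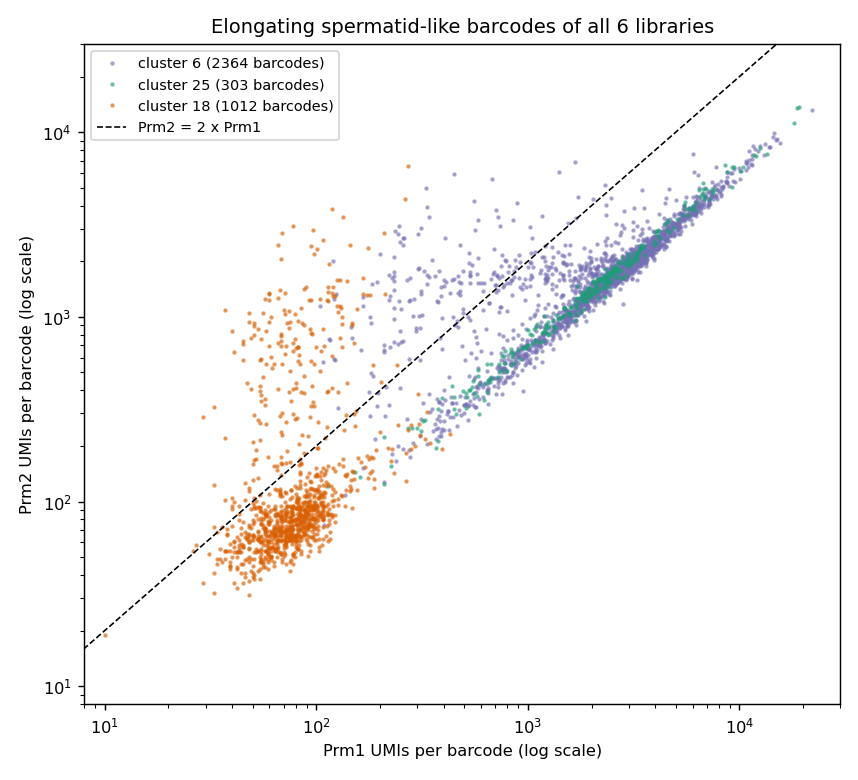
Prm1 and Prm2 UMIs (both log scale) in each of the 3679 elongating spermatid-like barcodes of all 6 libraries, coloured by cluster, with a dashed line where Prm2 is 2 times Prm1. Clusters 6 and 25 form a band below the line, most of cluster 18 lies at the free-RNA level, and 375 barcodes lie above the line.

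At the level of whole libraries, the 5 transcripts took a larger part of the RNA in the smoking libraries, but no member passed the test across genes. Prm1 made up 3.52%, 3.73% and 4.66% of retained UMIs in the controls, against 5.14%, 5.30% and 5.60% in the smoking libraries. Prm2 made up 2.78%, 2.85% and 3.45% against 3.56%, 3.81% and 4.32%. The transition protein Tnp1 made up 1.37%, 1.40% and 1.76% against 1.98%, 2.02% and 2.06%. For these 3 genes every smoking library lay above every control.

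Tnp2 made up 1.89%, 1.77% and 2.18% of retained UMIs in controls and 2.33%, 2.49% and 2.42% in smoking libraries, also without overlap. Prm3 made up 0.199%, 0.212% and 0.241% against 0.244%, 0.226% and 0.254%, with overlap. The exact two-sided permutation p was 0.1 for Prm1, Prm2, Tnp1 and Tnp2 (0.125 after Benjamini-Hochberg adjustment over the 5 genes) and 0.2 for Prm3, and 3 against 3 libraries cannot give a p under 0.1. Of all 18792 genes tested, 3.28% were higher in every smoking library than in every control by CPM (counts scaled to the library total), and 28.6% were lower in every one. Together the 5 genes took 9.76%, 9.97% and 12.3% of UMIs in controls and 13.3%, 13.8% and 14.7% in smoking libraries.

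On the scale of edgeR's quasi-likelihood test, which rescales libraries by TMM factors, the log2 fold of smoking over control was 0.64 for Prm1 (SE 0.259, adjusted p = 0.267), 0.57 for Prm2 (SE 0.247, 0.287) and 0.63 for Tnp1 (SE 0.214, 0.232). Tnp2 had a log2 fold of 0.52 (SE 0.211, adjusted p = 0.267) and Prm3 of 0.36 (SE 0.156, 0.289). None of the 5 passed the threshold of 0.05, and 0.00532% of all genes tested did in either direction. DESeq2 on the same sums called Prm1, Prm2, Tnp1 and Tnp2 higher, with log2 folds of 0.67, 0.61, 0.66 and 0.55 and adjusted p of 0.00643, 0.0140, 0.00436 and 0.00995, and called 1.99% of all genes higher. Without control 3, edgeR called 427 genes, and no member passed without any 1 library (lowest adjusted p = 0.0579).

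In such sums, more cells of a type and more RNA per cell cannot be told apart. Elongating spermatid-like barcodes made up 3.95%, 3.93% and 8.21% of retained barcodes in controls and 7.43%, 8.31% and 13.6% in smoking libraries (exact two-sided permutation p = 0.2, overlapping). They held 31.9% and 53.9% of all Prm1 UMIs in controls 1 and 3, less in control 2, and 55.2%, 55.7% and 64.3% in smoking libraries. Control 3 stood with the smoking libraries in its share of these barcodes, and its Prm1 share of the library lay between the other controls and the smoking libraries. The high-UMI cluster made up 0.818%, 0.851% and 2.27% of barcodes in controls and 2.18%, 2.02% and 3.81% in smoking libraries.

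**Figure D4:**
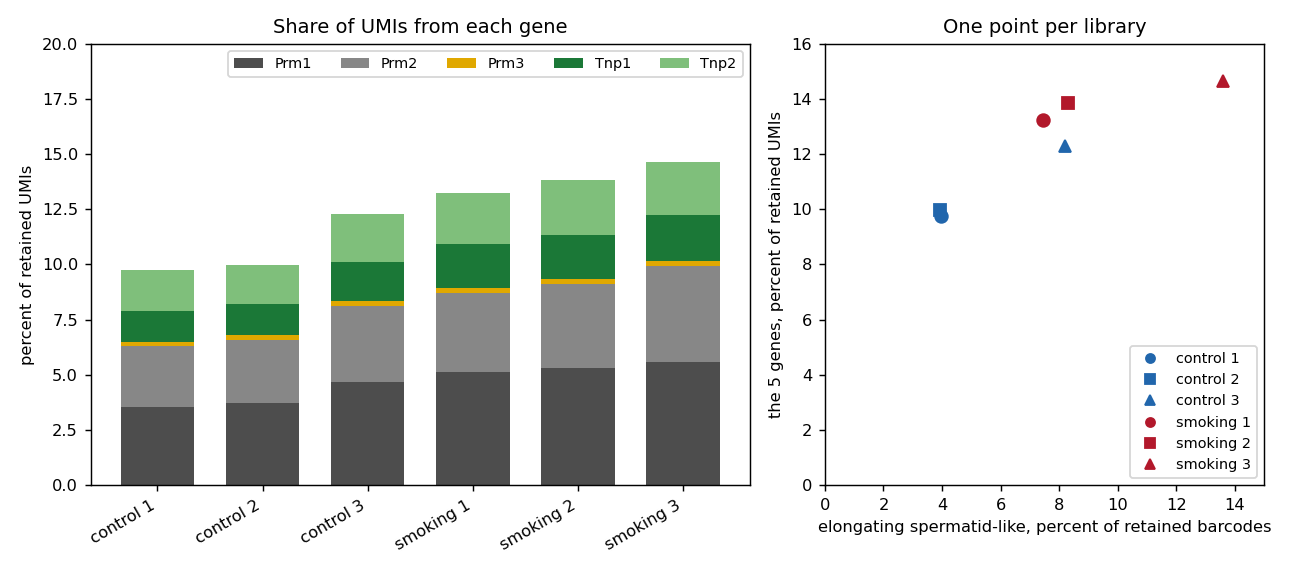
Left, the percent of retained UMIs from each of the 5 genes, stacked, in each library. Right, their sum against the percent of retained barcodes in the elongating spermatid-like class, 1 point per library: controls 1 and 2 lie lowest on both axes, and control 3 lies beside smoking libraries 1 and 2 in the share of barcodes and below them in the share of UMIs.

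Within elongating spermatid-like barcodes the level of Prm1 was 85939, 104732 and 108985 CPM in controls and 124184, 110807 and 114751 CPM in smoking libraries (99885 ± 12264 and 116581 ± 6874, SD, n = 3 each). Tnp1 stood at 32840, 39391 and 39064 CPM in controls and 46974, 41492 and 40039 CPM in smoking libraries. Prm1 and Tnp1 did not overlap between the groups, whereas Prm2, Prm3 and Tnp2 did, and 2.97% of the 10769 genes tested were likewise higher without overlap. The log2 fold was 0.50 for Prm1 (SE 0.282, edgeR adjusted p = 0.352), 0.47 for Prm2 (SE 0.265, 0.351), 0.34 for Prm3 (SE 0.190, 0.346), 0.49 for Tnp1 (SE 0.246, 0.304) and 0.37 for Tnp2 (SE 0.234, 0.394). None of the 5 passed, and 0% of all genes did (1944 genes had an unadjusted p under 0.05, and DESeq2 called 0.298% of genes higher and none of the 5 genes). Without control 3, edgeR called 608 genes in this class, and no member passed without any 1 library (lowest adjusted p = 0.0560).

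The mix of clusters within the class moved with this result. The class had a median of 5766.5, 4572 and 15449 UMIs per barcode in controls and 18384, 17888 and 16487.5 in smoking libraries, and cluster 18, whose Prm1 was at the free-RNA level, held 119 of 304, 130 of 314 and 182 of 643 of its barcodes in controls and 131 of 573, 173 of 671 and 277 of 1174 in smoking libraries. With each cluster weighted alike in every library, the log2 folds were 0.15 for Prm1, 0.14 for Prm2, 0.04 for Prm3, 0.14 for Tnp1 and 0.09 for Tnp2. With the estimated free RNA subtracted they were 0.19, 0.16, 0.06, 0.17 and 0.05. That estimate was 3681, 2861 and 2492 UMIs per barcode in controls and 2333, 2769 and 2289 in smoking libraries. In every library it exceeded the median total of the Sertoli-like barcodes it came from (2521, 2575 and 2390 against 2137, 2604 and 2032). The subtraction may thus remove too much, most of all in control 1. In cluster 6 alone the log2 fold of Prm1 was 0.23 (SE 0.103, edgeR adjusted p = 0.375) and that of Tnp1 0.21 (SE 0.0982, 0.381). In cluster 25 alone Prm1 gave -0.04 (SE 0.148) and in cluster 18 alone -0.17 (SE 0.485).

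In the high-UMI cluster the folds were small. Prm1 stood at 92270, 96871 and 99168 CPM in controls and 105453, 102659 and 102511 CPM in smoking libraries, without overlap. Its log2 fold was 0.18 (SE 0.0332, edgeR adjusted p = 0.0890). Prm2 gave 0.12 (SE 0.0250, 0.157), Tnp1 0.18 (SE 0.0415, 0.245), Tnp2 0.10 (SE 0.0276, 0.324) and Prm3 -0.03 (SE 0.0440, 0.892). None of the 5 passed, against 0.0513% of all genes (0.0257% higher and 0.0257% lower). DESeq2 called none of the 5 either (adjusted p = 0.0553 for Prm1), against 0.0159% of genes higher and 0.0159% lower. Without control 3, Prm1 (0.24), Prm2 (0.15), Tnp1 (0.26) and Tnp2 (0.14) passed, so that 1 library decided the count. Of all 8260 genes tested in that setting 9 passed, 7 higher and 2 lower. With the estimated free RNA subtracted the log2 folds were 0.04 for Prm1, -0.02 for Prm2, 0.04 for Tnp1, -0.04 for Tnp2 and -0.16 for Prm3, so that Prm2 and Tnp2 changed sign. The limit of that estimate given above holds here too.

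By CPM in the high-UMI cluster, Prm1, Prm2 and Tnp1 were higher in every smoking library (3.41% of all genes were), and Prm3 was lower in every one, with 3957, 4123 and 4039 CPM in controls and 3951, 3567 and 3730 CPM in smoking libraries (12.1% of all genes were lower without overlap). The ratio of Prm3 to Prm1 there was 0.0429, 0.0426 and 0.0407 in controls and 0.0375, 0.0347 and 0.0364 in smoking libraries. The same ratio in elongating spermatid-like barcodes was 0.0413, 0.0373 and 0.0377 against 0.0336, 0.0333 and 0.0363. The groups did not overlap (exact two-sided permutation p = 0.1, the smallest possible, and 0.4 after Benjamini-Hochberg adjustment over 4 ratios).

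The remaining ratios in the elongating class overlapped between the groups. Transition proteins over protamines (Tnp1 and Tnp2 over Prm1 and Prm2) stood at 0.496, 0.464 and 0.436 in controls and 0.465, 0.469 and 0.394 in smoking libraries (exact permutation p = 0.7). Prm2 over Prm1 was 0.772, 0.698 and 0.723 against 0.666, 0.698 and 0.775 (exact permutation p = 0.7). Tnp2 over Tnp1 was 1.30, 1.09 and 1.10 against 1.05, 1.12 and 1.00 (exact permutation p = 0.3, adjusted 0.6).

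In round spermatid-like barcodes the folds relative to the class total lay below 0 without passing the test, and counts per barcode did not show that direction. Prm3 had a mean of 13.8, 14.6 and 19.3 UMIs per barcode in controls and 21.2, 21.5 and 27.1 in smoking libraries. Tnp1 had 50.4, 47.7 and 50.1 against 54.6, 69.2 and 56.3. Both were higher in every smoking library (exact two-sided permutation p = 0.1 each), while Prm1, Prm2 and Tnp2 overlapped. The mean of all UMIs per barcode was also higher in every smoking library. The nearest libraries were control 3, with 1.31e+07 UMIs in 1299 barcodes, and smoking library 1, with 1.32e+07 in 1215. Counts per barcode are thus not corrected for depth, and the share of all genes that separate on this scale was not computed. Free RNA, estimated from other abundant spermatid transcripts in Sertoli-like barcodes, came to 92.6% to 116% of the Prm1 UMIs of this class, 89.6% to 113% for Prm2, 88.7% to 112% for Tnp2, 80.7% to 100.2% for Tnp1 and 21.5% to 53.3% for Prm3. By this estimate all but Prm3 stood near the free-RNA level. The estimate may be too high, since in every library it exceeded the median total of the Sertoli-like barcodes it came from. Cluster 19, with a mean of 62.5% of the UMIs of the class, held each gene above the somatic pool, as given above.

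On the edgeR scale the log2 folds in this class were -0.44 for Prm1 (edgeR adjusted p = 0.340), -0.47 for Prm2 (0.312), -0.07 for Prm3 (0.642), -0.34 for Tnp1 (0.349) and -0.52 for Tnp2 (0.312), and 0% of 13872 genes passed (2001 had an unadjusted p under 0.05, and DESeq2 called 44). By CPM all 5 overlapped between the groups, while 7.01% of genes were higher and 13.3% lower without overlap. In cluster 19 alone they were -0.19, -0.22, -0.08, -0.11 and -0.36. The difference of the smoking effect between elongating and round spermatid-like barcodes, tested in limma on differences within a library, was 0.99 for Prm1 (SE 0.536), 0.97 for Prm2 (SE 0.510), 0.43 for Prm3 (SE 0.220), 0.87 for Tnp1 (SE 0.453) and 0.92 for Tnp2 (SE 0.450) on the log2 scale. The limma adjusted p was 0.465 for each, and 0% of 10560 genes passed (1000 had an unadjusted p under 0.05). With clusters weighted alike the differences were 0.31, 0.30, 0.10, 0.27 and 0.32 in the same order, and without 1 library that of Prm1 ran from 0.74 to 1.35.

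In spermatocyte-like barcodes Prm3 and Tnp2 fell, at the free-RNA level. Prm3 stood at 569, 739 and 452 CPM in controls and 413, 394 and 282 CPM in smoking libraries, a log2 fold of -0.66 (SE 0.158, edgeR adjusted p = 0.0497). Tnp2 stood at 5133, 6174 and 3871 CPM against 3294, 3590 and 2096 CPM, a log2 fold of -0.72 (SE 0.176, edgeR adjusted p = 0.0499). Prm1 (-0.57, adjusted p = 0.0797), Prm2 (-0.55, 0.0646) and Tnp1 (-0.62, 0.0674) did not pass. The calls thus covered 2 of 5 members, against 1.88% of 11551 genes lower and 0.216% higher in smoking. All 5 were lower in CPM without overlap, as 15.5% of all genes were (8.35% were higher).

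The medians per barcode did not separate the groups in the spermatocyte-like class. Prm3 had a median of 4, 5 and 4 UMIs per barcode in controls and 4, 5 and 3 in smoking libraries, against 4, 4 and 4 and 4, 4 and 3 in the somatic pool. Tnp2 had 39, 42 and 37 against 33, 46 and 25, where the pool had 36, 38 and 34 against 34, 43 and 24. Both calls were lost with DESeq2 (adjusted p = 0.124 for Prm3 and 0.126 for Tnp2; 1.39% of genes were called lower), with RLE factors, with clusters weighted alike (log2 folds -0.26 and -0.30) and without any 1 of controls 1 and 2 or smoking libraries 2 and 3. Without smoking library 1, 1 member passed, and without control 3 all 5 did. Calls over all genes were 547 of 11955 (350 lower) and 636 of 11672 (588 lower) in these 2 settings. The levels being those of free RNA, they are not read as expression in spermatocytes.

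**Figure D5:**
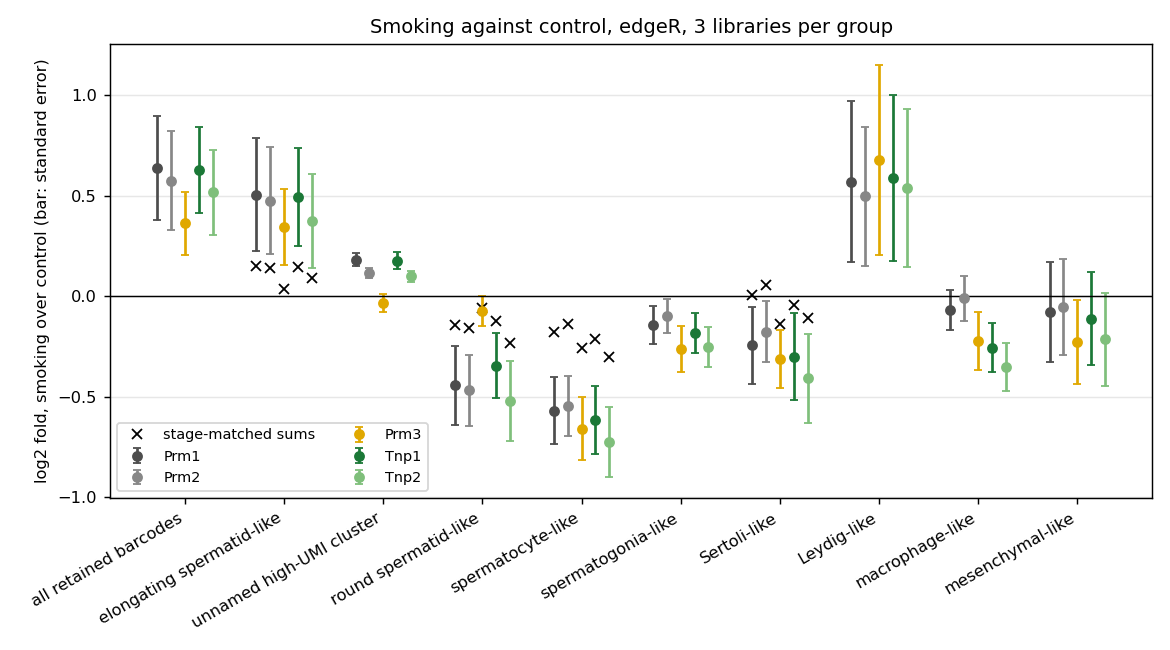
Log2 fold of smoking over control from edgeR for each gene in all retained barcodes and 9 classes (points, with bars of 1 standard error, 3 libraries per group), and the folds with clusters weighted alike (crosses). The folds lie above 0 in all barcodes and in the elongating spermatid-like class and below 0 in the round spermatid-like and spermatocyte-like classes, and the crosses lie nearer to 0.

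No member passed the edgeR test in spermatogonia-like, Sertoli-like, Leydig-like, macrophage-like or mesenchymal-like barcodes, where 0.0721%, 0%, 0%, 0.142% and 0% of all genes did. In the 3 classes at 0%, 398, 142 and 93 genes had an unadjusted p under 0.05, and DESeq2 called 1, 1 and 0. In Sertoli-like barcodes, which have the most somatic cells, Prm1 stood at 41431, 34195 and 29089 CPM in controls and 31940, 35348 and 23012 CPM in smoking libraries (exact two-sided permutation p = 0.5). Prm3 was the only member without overlap there, at 1955, 1789 and 1606 CPM in controls and 1582, 1599 and 1214 CPM in smoking libraries (exact two-sided permutation p = 0.1), where 4.07% of genes were lower and 4.87% higher without overlap. Cluster 27 is a Sertoli-like cluster of 44 barcodes with a median of 16291 UMIs, and 20, 8 and 5 of its barcodes came from the controls and 4, 3 and 4 from the smoking libraries. Its mean of per-barcode CPM of Prm1 was 85173, against 35186, 25263 and 10959 in Sertoli-like clusters 3, 12 and 30. On that scale the elongating clusters 6, 25 and 18 stood at 121967, 69121 and 28450. Without cluster 27, Prm1 in the summed Sertoli-like barcodes stood at 27511, 30639 and 27517 CPM in controls and 30201, 32966 and 20983 CPM in smoking libraries (exact two-sided permutation p = 0.9). With doublet-like barcodes kept, the difference of smoking minus control in the Sertoli-like class changed from -4805 to 7344 CPM.

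The genes most like each member were found by Pearson's correlation of log2 CPM over 54 sums of class and library, among 9404 genes, as a description: the points share libraries, depth and free RNA. Prm1 was most like 1700015G11Rik (r = 0.994), Ttc24 (0.994) and 1700027A15Rik (0.993). Prm2 was most like 1700027A15Rik (0.995), Ttc24 (0.994) and 1700015G11Rik (0.993). As given above, 1700027A15Rik is antisense to Tnp1.

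Prm3 had other neighbours, Pkib (r = 0.994), an inhibitor of protein kinase A, Ccdc54 (0.993) and Fam71e1 (0.992). Tnp1 was most like Tex37 (0.991), 1700015G11Rik (0.990) and 1700034E13Rik (0.989), and Tnp2 was most like Tfam (0.988), a DNA-binding factor of mitochondria, Tex37 (0.987) and Paqr5 (0.986). Among the members, r was 0.997 for Prm1 and Prm2, 0.994 for Tnp1 and Tnp2 and 0.896 for Prm1 and Prm3.

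Genes that act on the same steps were followed by class, from lists of related genes. Crem, a transcription factor that turns on spermatid genes, stood at 473 ± 39.6 CPM in round and 79.7 ± 19.5 CPM in elongating spermatid-like barcodes (SD over 6 libraries). Hils1 and H1fnt, linker histone variants of spermatids, stood at 1513 ± 47.0 and 595 ± 80.5 CPM in round and at 1193 ± 287 and 1670 ± 36.6 CPM in elongating spermatid-like barcodes. Tssk6, a kinase required for the exchange of histones for protamines and 1 of the markers of the elongating class, stood at 427 ± 102 CPM in round and 2056 ± 256 CPM in elongating spermatid-like barcodes. Camk4, a kinase that phosphorylates Prm2, was at 186 ± 11.8 and 101 ± 7.30 CPM. Ybx2, which binds and stores protamine mRNAs, stood at 1377 ± 107 CPM in spermatocyte-like, 755 ± 33.6 CPM in round and 762 ± 51.3 CPM in elongating spermatid-like barcodes. In spermatocyte-like barcodes the chaperone gene Hspa2 stood at 1320 ± 108 CPM, the piRNA-binding Piwil1 at 635 ± 39.9 CPM and the bromodomain gene Brdt at 239 ± 17.9 CPM. The RNA helicase gene Ddx25 stood at 446 ± 27.2 CPM in round spermatid-like barcodes. Socs1, the neighbour of Tnp2, stood at 55.6 ± 12.1 CPM in spermatogonia-like and 2.63 ± 0.874 CPM in elongating spermatid-like barcodes.

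None of these lists held a gene past the edgeR threshold in elongating spermatid-like barcodes, where the median log2 fold of all genes was -0.07. Of the nuclear chromatin proteins 8 of 15 listed genes were tested, with a median log2 fold of -0.19, and the smallest p belonged to H3f3b, a replacement histone (-0.39, adjusted p = 0.241). Of chromatin removal and remodelling genes 25 of 30 were tested (median -0.22, Smarca5 -0.60, adjusted p = 0.235). The 11 chaperones and kinases had a median of -0.06 (Cdyl -0.62, adjusted p = 0.180), the 12 genes of transcription -0.19 (Taf7l -1.38, adjusted p = 0.180) and the 18 genes of mRNA storage and translation -0.27 (Cpeb2 -0.48, adjusted p = 0.237). By contrast, 15 other abundant spermatid transcripts had a median of 0.33, with 11 above 0 and 4 below, and the smallest p belonged to Spink2 (-0.49, edgeR adjusted p = 0.237). Among these 15, which also set the free-RNA estimate, Smcp, Odf1, Gapdhs, Oaz3, Akap4, Dbil5 and Cabs1 were markers of the elongating class. The 5 members lay between 0.34 and 0.50. The lists were not followed with clusters weighted alike, which lowered the folds of the members.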

How the data were processed

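The deposited files held raw UMI counts per gene and barcode that the authors made from droplet-based 3′ RNA-seq on mm10. Cell Ranger 3.1.0 is named per the file headers and Cell Ranger 7.1.0 with CASAVA 1.8 per the submitters' processing notes. Neither source says which of these made the counts or whether free RNA or doublets had been removed.

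Barcodes over 20% mitochondrial UMIs and doublet-like barcodes (50 neighbours among simulated pairs, 0.8% per 1000 barcodes) were removed. The rest were clustered without the 5 genes on 2000 variable genes and 30 principal components (leidenalg 0.10.2, igraph 0.11.9, resolution 1, numpy 2.4.6 and scipy 1.17.1 in Python 3.11.15). A cluster was named where at least 3 markers were detected in 20% of barcodes at a log2 fold of 1 or more. This naming rule and the separate treatment of the high-UMI cluster were set after the data had been seen.

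UMIs were summed per class and library and tested with edgeR 4.0.16 (quasi-likelihood test, TMM factors, filterByExpr, Benjamini-Hochberg adjustment over all genes, threshold 0.05) in R 4.3.3. DESeq2 1.42.0 and the other alternatives are given in the closing section. Differences of effects used limma 3.58.1 with a prior count of 1. The scripts were tested on simulated data. Single values were tested by exact two-sided permutation over 20 assignments. The genes named were the 5 members, Socs1, the 3 genes most like each member, the gene with the smallest p of each list and a set of regulators given by class. The members and all lists were chosen with earlier results of these data known.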

Additional observations from a re-analysis of the deposited data

How the results depend on the processing

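Over 58 results and 724 alternative values, 628 kept their direction and side of the threshold (counts within 1.5 times), 26 were weaker, 20 stronger, 28 reversed and 22 moved. The cause was not tested for any of these. For results tested by exact permutation the side of the threshold of 0.05 was fixed in advance, since their p cannot fall under 0.1. Such values could only keep or reverse their direction, and the 628 include those that kept it. No paired analysis was possible because the labels give no replicate numbers that tie a control library to a smoking library.

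In all retained barcodes DESeq2 moved 4 log2 folds past the threshold, 0.67 for Prm1, 0.61 for Prm2, 0.66 for Tnp1 and 0.55 for Tnp2. In elongating spermatid-like barcodes, cluster 18 alone (chosen after seeing the data) gave -0.17 for Prm1, -0.16 for Prm3, -0.14 for Tnp1 and -0.16 for Tnp2, and cluster 25 alone gave -0.039 for Prm1, -0.074 for Prm2, -0.11 for Prm3 and -0.067 for Tnp2. In the high-UMI cluster, subtracting free RNA gave -0.023 for Prm2 and -0.043 for Tnp2, and dropping the low-count filter gave 0.010 for Prm3. In elongating spermatid-like barcodes the same subtraction lowered the log2 fold of Prm1 to 0.19, with an estimate that may be too high. In the remaining classes it is not used, since the estimate there came near or above the members' own UMIs for most members.

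Of 2 members called in spermatocyte-like barcodes, 0 remained with DESeq2, RLE factors, a mitochondrial limit of 10%, library sizes without the members, resolution 2, clusters weighted alike, at least 6000 UMIs or members put back in clustering. The count was 1 with doublet-like barcodes kept, where 346 of 11974 genes were called. It was 5 with no low-count filter (1044 of 21513 genes) and 0 to 5 without a library (1 to 636 genes). With no low-count filter 4 members passed in round spermatid-like barcodes (434 of 23556 genes did) and 2 in the high-UMI cluster (61 of 18896). Leaving out a library gave 0 to 4 members in the high-UMI cluster, where 1 to 9 genes were called. With doublet-like barcodes kept 3 passed in Sertoli-like barcodes, as 13 of 11607 genes did.

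In Sertoli-like barcodes the CPM of smoking minus control was -4805 for Prm1, -2602 for Prm2, -318 for Prm3, -2167 for Tnp1 and -3894 for Tnp2. In all other somatic classes it was 1441, 759, 55.7, 359 and 114, and with doublet-like barcodes kept 7344, 5264, 82.6, 2543 and 2943. For Prm2 the mean of per-barcode shares gave 356, and leaving out the cluster richest in Prm1 (chosen after seeing the data) gave 408. Of the 15 pairs of a member and a gene most like it (some genes recur), 7 were shared by Spearman correlation and 6 over germ cell clusters.

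Leaving out 1 library moved the log2 fold in all barcodes between 0.52 and 0.83 for Prm1, and in elongating spermatid-like barcodes between 0.34 and 0.69. Prm3 in the high-UMI cluster ran from -0.077 to 0.0046. The log2 ratio of transition proteins over protamines ran from -0.12 to 0.0068 (above 0 without smoking library 3) and of Prm2 over Prm1 from -0.10 to 0.0096. The exact tests cannot give a p under 0.1 with 3 libraries per group, or under 0.2 without a library.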
